A study of Mus musculus with 8 samples.

Results

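Siglecs are surface lectins of the immunoglobulin superfamily that bind sialic acids, the terminal sugars of most glycans on healthy cells. Many Siglecs and other inhibitory receptors of myeloid cells carry an immunoreceptor tyrosine-based inhibitory motif (ITIM), which recruits phosphatases once it is phosphorylated and so dampens signals from activating receptors. Microglia, the resident macrophages of the brain, use such receptors to hold phagocytosis and inflammatory responses in check. The genes described here are 10 listed by symbol: the sialic acid binding receptors *Siglec1*, *Siglece*, *Cd33* and *Cd22*, the ITIM-bearing *Cd72*, *Cd300lf* and *Sirpa*, the checkpoint genes *Havcr2* and *Cd274*, and *Cd52*. All 10 were found among the 20308 gene symbols of the files, and all 10 passed the filter on low counts with which 13407 genes were kept. The list is one of inhibitory molecules in a wide sense, since *Siglec1* has no ITIM, *Cd274* encodes a ligand and *Cd52* a small anchored glycoprotein.

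RNA was measured in CD11b+ cells pulled down with magnetic beads, after myelin removal, from the right hemisphere of 4 control and 4 CSF1 OE mice, with 1 library per mouse. All mice were F1 animals of C57Bl/6 and CD1 aged 14 or 15 days. In CSF1 OE mice, some of the GFAP+ cells carry extra expression of secreted CSF1, the growth factor of microglia, driven by TRE and tTA, and the labels describe the others only as controls for it, without naming the transgenes they carry. The mice are named here by the animal numbers of their labels, the controls being 1827, 1872, 1874 and 1934 and the CSF1 OE mice 1931, 1932, 1936 and 2019. No source used here says whether they were littermates, and the tests measure the spread between these mice.

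Between 12053280 and 15475488 counts were assigned to genes per library. Scaled to these totals, without normalization, 3 counts corresponded to 0.194 to 0.249 CPM. The other CPM values given here are counts scaled to a TMM-normalized library size. The mean log2 total of CSF1 OE mice minus that of controls was -0.14 (exact permutation, two-sided, p = 0.143, the smallest that 70 assignments allow being 0.0286). *Csf1* itself had 282 ± 98.7 CPM in controls and 322 ± 107 CPM in CSF1 OE mice (SD, n = 4 each) and was not called. The microglia markers, 10 genes such as *Tmem119* and *P2ry12*, summed to between 22776 and 40169.7 CPM in controls and between 29129 and 41249 CPM with CSF1 OE, and the lowest sum belonged to control mouse 1934. That library also held the lowest control value in 7 of the 10 receptor genes, and CSF1 OE mouse 2019, with the highest sum, held the highest CSF1 OE value in 6 of them. The sums of border macrophage markers ran from 2979.9 to 4079 CPM in controls and from 2109 to 3227 CPM with CSF1 OE, and those of endothelial markers from 456 to 785 CPM and from 199.7 to 528 CPM. Fewer cells of a type and less RNA per cell cannot be told apart in such bulk samples.

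Promoters of 7 of the 10 genes were matched by symbol in a RefSeq table (GRCm38.p6), and those of *Siglec1*, *Sirpa* and *Cd52* were not analysed here. Windows of 300 bases, from 250 before to 50 after the start site, were searched on both strands for 3 patterns. GAAA followed by any 2 bases and GAAA is the core of the interferon-stimulated response element, TTCNNNGAA that of the gamma-activated site, and GAGGAAGT is a site for PU.1, the transcription factor that directs myeloid genes. Of all 32851 windows, 3.44%, 8.30% and 3.20% held the patterns in this order. The first and the second pattern matched in 0 of the 7 windows, and the PU.1 pattern in 3, those of *Cd72*, *Havcr2* and *Cd300lf*. These 3 are shown, *Cd72* being the only gene of the 10 that was called, each from 150 bases before to 30 after the start site, 5′ to 3′ on the strand of the gene, with the match in capitals. The match of *Cd72* lies on the opposite strand, so that it reads as its reverse complement. A match describes these letters only and is no evidence of binding.
Cd72, chr4:43454597-43454776, minus strand: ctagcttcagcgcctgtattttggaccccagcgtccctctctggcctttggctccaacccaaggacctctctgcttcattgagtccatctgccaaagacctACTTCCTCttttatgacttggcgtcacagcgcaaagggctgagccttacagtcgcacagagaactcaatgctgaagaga
Havcr2, chr11:46454781-46454960, plus strand: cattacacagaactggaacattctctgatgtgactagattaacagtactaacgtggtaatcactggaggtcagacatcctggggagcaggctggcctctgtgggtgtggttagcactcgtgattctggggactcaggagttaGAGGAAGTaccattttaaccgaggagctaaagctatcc
Cd300lf, chr11:115133963-115134142, minus strand: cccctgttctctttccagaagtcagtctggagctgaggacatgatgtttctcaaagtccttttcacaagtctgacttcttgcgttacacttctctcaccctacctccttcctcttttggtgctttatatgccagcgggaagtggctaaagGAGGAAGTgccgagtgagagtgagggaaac

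To ask how CSF1 OE changed these receptors, edgeR's quasi-likelihood test was run on all genes that passed the filter. A gene was called at a Benjamini-Hochberg adjusted p under 0.05 over all genes tested together with a fold change under 0.7 or over 1.43, the fold limits of the study. Of the 10 genes, 1 was called, *Cd72*, which rose in CSF1 OE mice, beside 0.44% of all genes tested and 0.388% called in that direction. The other 9 did not pass the adjusted test with all 8 mice. Log2 fold changes lay above 0 in 9 of the 10, beside 44.8% of all genes tested. An unadjusted p under 0.05 was reached by 6 of the 10, beside 16.5% of all genes tested, and these 6 were higher in CSF1 OE mice, beside 10.1% in that direction. In the same 6 genes the genotypes were without overlap, *Cd72*, *Cd52*, *Cd274*, *Cd22*, *Havcr2* and *Siglec1*, beside 10.3% of all genes tested without overlap and 6.84% with every CSF1 OE mouse above every control mouse. The median log2 fold change of the 10 was 0.65 and that of all genes tested was -0.034, with a 10th percentile of -0.51 and a 90th of 0.32. The 10 genes were chosen with earlier results of these data known, so these comparisons are descriptions and no independent result.

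**Figure D1:**
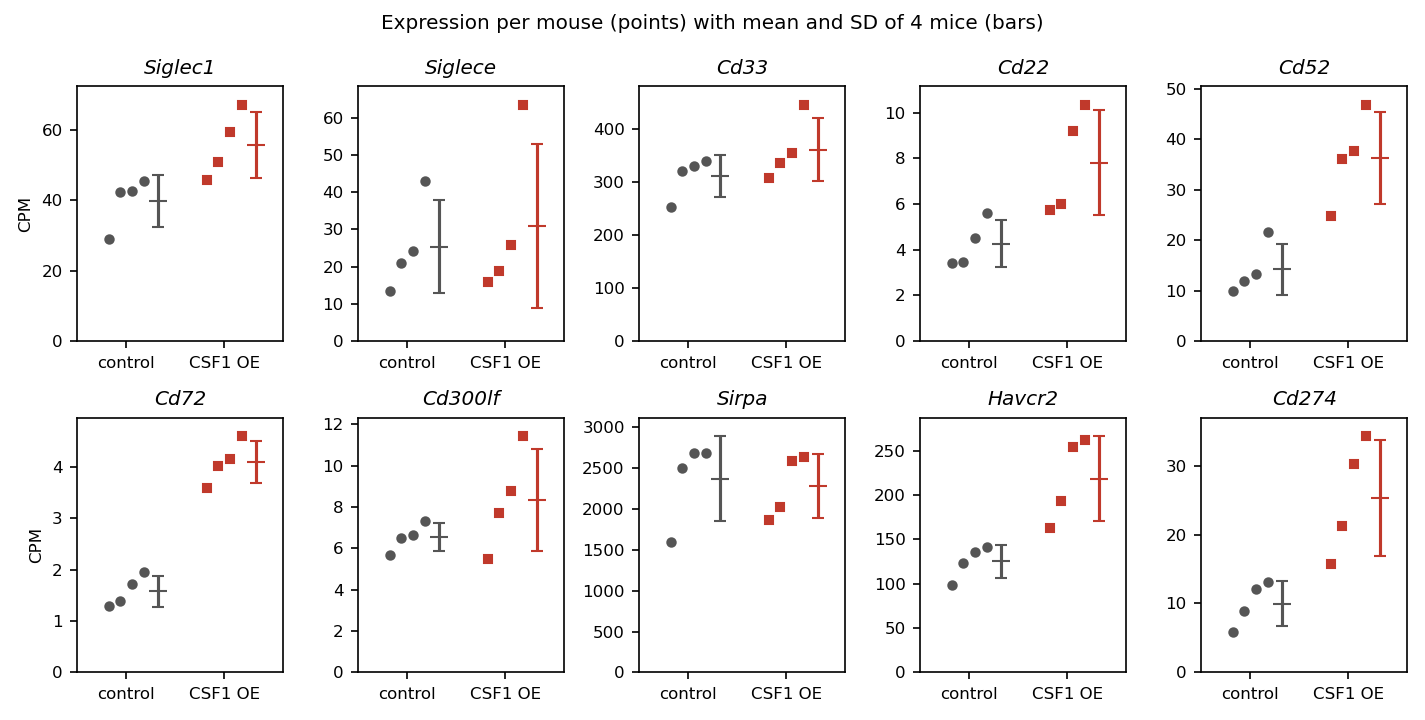
Expression of the 10 receptor genes in CPM (vertical axes, linear and from 0, each panel on its own scale) in control (grey circles) and CSF1 OE mice (red squares), 1 point per mouse in ascending order within a genotype, with the mean and SD of 4 mice beside them. In 6 panels every red square lies above every grey circle, while the genotypes overlap for *Siglece*, *Cd33*, *Cd300lf* and *Sirpa*.

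*Cd72* encodes a C-type lectin-like receptor with an ITIM, best known from B cells, where it restrains signals of the antigen receptor. Its gene lies on chromosome 4 from 43446462 to 43454628. Control mice 1827, 1872, 1874 and 1934 had 1.95, 1.38, 1.29 and 1.72 CPM, and CSF1 OE mice 1931, 1932, 1936 and 2019 had 4.60, 3.60, 4.02 and 4.16 CPM. Each CSF1 OE value lay above all control values, and the spread within a genotype was small. Means were 1.58 ± 0.305 and 4.10 ± 0.412 CPM (SD, n = 4 each), a log2 fold change of 1.36 (SE 0.223, edgeR adjusted p = 0.0487). This rise rests on 17 to 59 counts per library, and the adjusted p lies just under the threshold. Leaving out control mouse 1827 kept the call (edgeR, adjusted p = 0.0428), beside 1.21% of all genes tested then, and leaving out any of the other 7 mice ended it, with edgeR's adjusted p from 0.0569 without CSF1 OE mouse 2019 to 0.185 without control mouse 1872 and log2 fold changes from 1.28 to 1.42. The call was also lost with upper-quartile factors (edgeR, adjusted p = 0.0530) and without a filter on low counts (0.0524), in a range from 2.77e-05 to 0.450 over 15 alternatives.

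Reads of *Cd72* may be shared with a neighbour, because 1423 bases of its exons overlap those of *Tesk1*, a kinase gene on the other strand, and the libraries did not keep the strand. The expected counts of *Cd72* were not whole numbers in 8 of 8 libraries, as happens when RSEM divides reads between genes or copies. Exon bases are also shared with annotated neighbours by *Cd274* (511), *Cd22* (479) and *Cd52* (172). None of these neighbours was found under its annotated symbol, and older symbols were not searched. *Tesk1* had 37.3 ± 8.05 CPM in controls and 36.7 ± 6.11 CPM with CSF1 OE, a log2 fold change of -0.02 (SE 0.183, edgeR adjusted p = 0.961). Whether reads of *Tesk1* contribute to the values of *Cd72* was not tested. Semaphorin 4D, the ligand of CD72, is encoded by *Sema4d*, which had 293 ± 42.8 CPM in controls and 320.3 ± 47.9 CPM in CSF1 OE mice (edgeR, adjusted p = 0.682).

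*Cd72* and *Cd22* are both widely used as B cell genes, so the B cell markers were read beside them. The immunoglobulin genes *Igkc*, *Ighm* and *Ighd*, also listed as B cell markers, were not found in the files and could not be read. Of 8 such markers in the files, 1 passed the filter on low counts, 4 had at most 3 counts in every library and *Pax5*, the gene of the defining transcription factor, had a count of 0 throughout. The gene that passed was *Cd79b*, with 14.4 ± 5.16 CPM in controls and 13.4 ± 1.68 CPM in CSF1 OE mice (edgeR, adjusted p = 0.854). The other 7 markers, *Cd79a* and *Ms4a1* included, together summed to between 0.414 and 1.04 CPM in controls and between 0.493 and 0.974 CPM in CSF1 OE mice, and none reached more than 6 counts in a library.

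*Cd22* encodes an ITIM Siglec of B cells that is also known from aged microglia as a brake on phagocytosis. It lies on chromosome 7 from 30865402 to 30880342. The control mice 1827, 1872, 1874 and 1934 had 4.50, 5.60, 3.48 and 3.43 CPM, while 10.3, 5.73, 6.00 and 9.21 CPM were measured in CSF1 OE mice 1931, 1932, 1936 and 2019. The genotypes did not overlap, but CSF1 OE mouse 1932 was only just above control mouse 1872. *Cd22* had 4.25 ± 1.03 CPM in controls and 7.82 ± 2.31 CPM with CSF1 OE (SD, n = 4 each), a log2 fold change of 0.88 (SE 0.265, edgeR adjusted p = 0.161), and was not called.

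*Siglec1* encodes sialoadhesin or CD169, a long Siglec without ITIM that mediates contact with sialylated cells and particles, is induced by interferons and marks macrophages at the borders of tissues. On chromosome 2 it runs from 131069220 to 131086765. Values of 45.3, 42.2, 42.5 and 29.1 CPM were found in control mice 1827, 1872, 1874 and 1934, and of 50.8, 45.9, 59.4 and 67.1 CPM in CSF1 OE mice 1931, 1932, 1936 and 2019. Both genotypes were separate by a narrow margin, between CSF1 OE mouse 1932 and control mouse 1827. The means of 39.8 ± 7.26 and 55.8 ± 9.38 CPM gave a log2 fold change of 0.49 (SE 0.164, edgeR adjusted p = 0.196), which is also under the fold limit. All 10 genes of a border macrophage list, such as *Mrc1*, *Lyve1* and *Cd163*, had log2 fold changes below 0, from -1.11 to -0.16. Of all genes tested, 44.8% lay above 0. In this list 7 genes had an unadjusted p under 0.05, beside 6.44% of all genes tested that were lower. Of its 10 genes 0 were called, beside 0.44% of all genes tested, and 1 was without overlap, beside 10.3%. The part of border macrophages in the value of *Siglec1* was not tested.

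*Siglece* and *Cd33* encode Siglecs of the CD33-related group, of which Siglec-E carries ITIMs and restrains the oxidative burst of mouse microglia. *Siglece*, on chromosome 7 from 43651070 to 43660161, had the largest SE of the 10 fold changes. It stood at 43.0, 24.3, 21.0 and 13.4 CPM in control mice 1827, 1872, 1874 and 1934 and at 25.8, 15.8, 18.8 and 63.6 CPM in CSF1 OE mice 1931, 1932, 1936 and 2019. One mouse of each genotype, 1827 and 2019, was far above the other 3, and the groups overlapped. The log2 fold change of 0.28 (95% interval from -0.81 to 1.38, edgeR adjusted p = 0.791) was therefore undetermined in sign, and without CSF1 OE mouse 2019 it turned to -0.34. *Cd33*, on chromosome 7 from 43524216 to 43544428, was steadier, with 253 to 339 CPM in controls and 308 to 446 CPM in CSF1 OE mice. Its means were 311 ± 39.3 and 361 ± 59.8 CPM, a log2 fold change of 0.22 (95% interval from -0.10 to 0.53, edgeR adjusted p = 0.472). Expected counts of *Cd33* were not whole in 8 of 8 libraries, so reads may have been divided with related sequences.

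*Cd52* encodes a short glycoprotein on a lipid anchor that covers the surface of lymphocytes and monocytes and whose soluble form can act through a Siglec. It is on chromosome 4 from 134082448 to 134095082. In control mice 1827, 1872, 1874 and 1934 it reached 21.6, 13.2, 11.9 and 9.99 CPM, against 36.1, 24.7, 37.6 and 46.8 CPM in CSF1 OE mice 1931, 1932, 1936 and 2019. Of these, the lowest CSF1 OE mouse, 1932, was close to the highest control mouse, 1827. With 14.2 ± 5.14 and 36.3 ± 9.08 CPM (SD, n = 4 each), the log2 fold change was 1.36 (SE 0.267, edgeR adjusted p = 0.0558), just outside the call. Without control mouse 1827 *Cd52* was called higher (log2 fold change 1.64, edgeR adjusted p = 0.0333, against 0.000115 to 0.194 for all alternatives tried).

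*Cd274* encodes PD-L1, a ligand that interferons induce on macrophages and that inhibits T cells through the receptor PD-1. The gene lies on chromosome 19 from 29367455 to 29388095. Its values were 12.2, 8.85, 5.90 and 13.1 CPM in control mice 1827, 1872, 1874 and 1934 and 21.2, 34.2, 30.2 and 15.8 CPM in CSF1 OE mice 1931, 1932, 1936 and 2019. No CSF1 OE mouse fell within the control range, although mouse 2019 was close to it. The log2 fold change was 1.34 (SE 0.304, edgeR adjusted p = 0.0824). *Pdcd1*, which encodes PD-1, had 6.64 ± 4.41 and 12.9 ± 6.66 CPM, and the groups overlapped (edgeR, adjusted p = 0.381). *Cd80*, another partner of PD-L1, had a log2 fold change of 0.20 (SE 0.281, edgeR adjusted p = 0.752). The lowest of the 13 ligand and partner genes tested was *Plxnb1*, a receptor for semaphorin 4D, at -0.42 (edgeR, adjusted p = 0.528).

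Within the genotypes, *Cd274* varied unlike some of the other genes. The Pearson correlation of its deviations from the genotype means over the 8 libraries ran from -0.81 with *Havcr2*, -0.77 with *Sirpa* and -0.68 with *Cd33* to 0.33 with *Cd72* and 0.34 with *Cd300lf*. By contrast, *Siglec1* and *Cd33* had a correlation of 0.95, *Sirpa* and *Havcr2* of 0.90, and *Siglece* and *Cd52* of 0.88. These are descriptions of 8 libraries that differ in the level of the microglia markers, whose part in the correlations was not tested. Mouse 2019 illustrates them with the lowest *Cd274* value of the CSF1 OE mice and the highest *Siglec1*, *Siglece*, *Cd33* and *Havcr2* values.

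*Havcr2* encodes TIM-3, a checkpoint receptor that microglia express at high level and that binds galectin-9, HMGB1, CEACAM1 and phosphatidylserine. It is on chromosome 11 from 46454935 to 46481255. The control mice 1827, 1872, 1874 and 1934 stood at 136, 124, 142 and 98.7 CPM, and 255, 163, 194 and 262 CPM were found in CSF1 OE mice 1931, 1932, 1936 and 2019. All CSF1 OE mice exceeded all control mice. The log2 fold change was 0.80 (SE 0.174, edgeR adjusted p = 0.0734), and the counts, 1669 to 3100 per library, were well above those of *Cd72*. Like those of *Cd72*, the expected counts of *Havcr2* were not whole in 8 of 8 libraries, so reads may have been divided with other sequences. Galectin-9 is encoded by *Lgals9*, which had 300.5, 225, 209 and 181 CPM in the control and 377, 314, 426 and 337 CPM in the CSF1 OE mice in the same order. The genotypes did not overlap in *Lgals9* either, and its log2 fold change of 0.67 (SE 0.164, edgeR adjusted p = 0.0984) did not pass the test. *Hmgb1* had 315 ± 19.0 and 387 ± 38.3 CPM (log2 fold change 0.30, edgeR adjusted p = 0.188), and *Ceacam1* 0.09 on the log2 scale (edgeR, adjusted p = 0.899).

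*Sirpa*, on chromosome 2 from 129592835 to 129632228, encodes the ITIM receptor for CD47, the signal by which cells avoid phagocytosis. It was the most abundant of the 10 genes per length. It had 2498, 2693, 2687 and 1600.4 CPM in control mice 1827, 1872, 1874 and 1934 and 2583, 1865, 2025 and 2639.6 CPM in CSF1 OE mice 1931, 1932, 1936 and 2019. Most of the 2 ranges coincided, with the lowest value in control mouse 1934. The log2 fold change was -0.06, with a 95% interval from -0.51 to 0.39 (edgeR, adjusted p = 0.903). *Cd47* had 54.5 ± 4.45 and 55.0 ± 10.6 CPM (SD, n = 4 each, edgeR adjusted p = 0.965). *Sirpa* has close copies, the *Sirpb1* genes, and its expected counts were not whole in 8 of 8 libraries. The only copy that passed the filter, *Sirpb1c*, had 1.40 ± 0.397 and 0.613 ± 0.360 CPM, lower in CSF1 OE mice without overlap (edgeR, adjusted p = 0.293). These values already include any division of reads between the copies. Whether *Sirpa* shared reads with them was not tested.

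*Cd300lf*, on chromosome 11 from 115116214 to 115133992, encodes an ITIM receptor for lipids. Control mice had 5.67 to 7.32 CPM, and CSF1 OE mice 1931, 1932, 1936 and 2019 had 11.4, 7.72, 8.79 and 5.49 CPM. Mouse 2019 was below every control mouse and the other 3 were above them. The log2 fold change was 0.36 (95% interval from -0.15 to 0.86, edgeR adjusted p = 0.460).

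**Figure D2:**
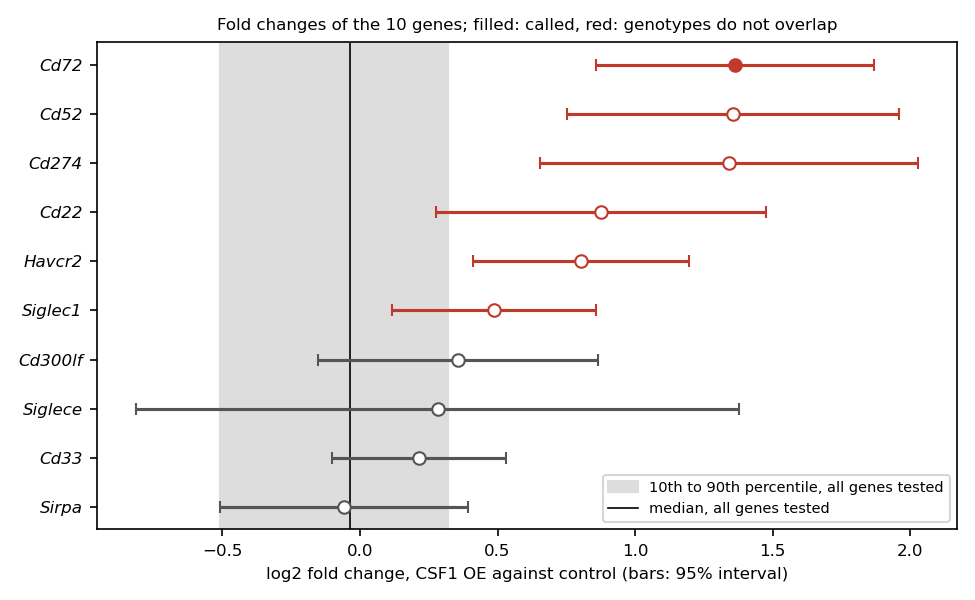
Log2 fold change of each gene (horizontal axis, CSF1 OE against control, edgeR) with its 95% interval, filled where the gene was called and red where the genotypes did not overlap, over the range from the 10th to the 90th percentile of all genes tested (grey band) and their median (line). *Cd72*, *Cd52* and *Cd274* lie between 1.34 and 1.36, *Cd22*, *Havcr2* and *Siglec1* between 0.49 and 0.88, and the intervals of the other 4 include 0.

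Levels of the 10 genes can be set side by side only per length, as CPM per kb of all exons merged. In control mice the order from *Sirpa* at 482 ± 106 CPM per kb was *Havcr2* at 46.0 ± 7.03, *Cd33* at 40.1 ± 5.05, *Siglece* at 13.7 ± 6.81, *Cd52* at 11.9 ± 4.33, *Siglec1* at 5.57 ± 1.02, *Cd274* at 2.76 ± 0.905, *Cd300lf* at 1.27 ± 0.132, *Cd22* at 0.843 ± 0.204 and *Cd72* at 0.463 ± 0.0892 (SD, n = 4 each). The neighbours *Havcr2* and *Cd33*, *Siglece* and *Cd52*, and *Cd300lf* and *Cd22* overlapped in their values per mouse and cannot be ranked. In CSF1 OE mice *Havcr2* at 80.2 ± 17.6 CPM per kb was separate from *Cd33* at 46.5 ± 7.70. *Cd52* at 30.6 ± 7.65 stood before *Siglece* at 16.8 ± 11.96. Their ranges overlapped, but *Cd52* exceeded *Siglece* within each CSF1 OE mouse. The order depends on the length taken: with the median length of the protein-coding transcripts *Cd33*, at 159 ± 20.01 CPM per kb in control mice, came before *Havcr2*.

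Other genes around the receptors were read from lists of their ligands, signalling proteins, further Siglecs and inhibitory receptors, and enzymes that make sialic acid or move it. Of 94 such genes in the files, 85 were tested and 0 were called by edgeR. An unadjusted p under 0.05 was found for 10 that were higher and 3 that were lower in CSF1 OE mice, beside 10.1% and 6.44% of all genes tested, and DESeq2 called 3, *Cd84*, *Lgals9* and *Pilra*, all higher, beside 3.16% of all genes, a share near that of these genes. The median log2 fold change of the 85 was 0.041.

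Further Siglec genes gave 0 calls among 4 tested. *Siglech*, a microglial Siglec that signals through an activating adaptor, had 684 ± 117 and 799.9 ± 170.3 CPM (edgeR, adjusted p = 0.554). *Siglec5*, the symbol in the files for Siglec-F, had a log2 fold change of 0.15 (SE 0.169) and *Siglecg* of 0.29 (SE 0.242), the largest of the list. *Mag*, the Siglec of myelin, had the lowest, -0.39 (SE 0.291), and is an oligodendrocyte gene, of which 6 markers summed to between 2819 and 5924 CPM in controls and between 1542 and 4835 CPM in CSF1 OE mice. The part of myelin RNA in the value of *Mag* was not tested.

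Among 19 further inhibitory receptors tested, 3 had an unadjusted p under 0.05, all higher, beside 10.1% of all genes tested, and they are named here after their values were seen. *Cd84*, a SLAM family receptor, had 142 ± 24.8 CPM in controls and 221 ± 50.04 CPM in CSF1 OE mice (log2 fold change 0.64, edgeR adjusted p = 0.146). *Pilra*, an ITIM receptor for sialylated glycoproteins, had 9.08 ± 0.803 and 14.2 ± 3.23 CPM (log2 fold change 0.64, edgeR adjusted p = 0.131), and *Milr1*, an ITIM receptor known from mast cells, 10.9 ± 1.15 and 15.3 ± 3.81 CPM (edgeR, adjusted p = 0.227). In these 3 genes the genotypes did not overlap, beside 6.84% of all genes tested. The lowest log2 fold change was that of *Cd200r1*, the receptor for CD200, at -0.59 (SE 0.317, edgeR adjusted p = 0.394), and the highest that of *Pdcd1* at 0.95 (SE 0.501).

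The phosphatases that ITIMs recruit were tested with other signalling genes, of which 0 were called. *Ptpn6*, which encodes SHP-1, had 299 ± 61.9 and 326 ± 63.5 CPM (log2 fold change 0.13, SE 0.189), and *Inpp5d*, which encodes the lipid phosphatase SHIP-1, had a log2 fold change of 0.19 (SE 0.176). The activating adaptor gene *Tyrobp*, which partners several Siglecs, had 414 ± 80.5 and 560.4 ± 69.3 CPM (log2 fold change 0.44, edgeR adjusted p = 0.221). Its relative *Hcst* had the highest value of the 22 signalling genes tested, 0.72 (SE 0.291, edgeR adjusted p = 0.265), and *Socs3*, a feedback inhibitor of cytokine signals, the lowest, -0.42 (SE 0.217).

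In the sialic acid list 20 of 29 tested genes had log2 fold changes below 0 and 9 above 0, beside 44.8% of all genes tested above 0. The median was -0.18, and 0 were called, beside 0.44% of all genes tested. *Gne*, the enzyme that begins sialic acid synthesis, had 21.9 ± 1.97 CPM in controls and 16.4 ± 1.92 CPM in CSF1 OE mice, without overlap (log2 fold change -0.42, edgeR adjusted p = 0.149). *Slc35a1*, the transporter that brings activated sialic acid into the Golgi, had 25.1 ± 0.649 and 21.1 ± 2.59 CPM, also without overlap (edgeR, adjusted p = 0.289). *St3gal6*, a transferase that caps galactose with sialic acid, had 202 ± 31.6 and 143 ± 25.0 CPM (log2 fold change -0.50, edgeR adjusted p = 0.169). The next enzyme after *Gne*, encoded by *Nans*, went the other way, with 31.2 ± 7.23 and 39.9 ± 2.50 CPM (edgeR, adjusted p = 0.288). *St6galnac6*, another sialyltransferase gene, had 19.1 ± 1.82 and 23.1 ± 1.33 CPM, without overlap (log2 fold change 0.28, edgeR adjusted p = 0.239). These 5, all of the list with an unadjusted p under 0.05, were named after their values were seen. They were 3 lower and 2 higher genes of 29, beside 6.44% and 10.1% of all genes tested. Genotypes were without overlap in 3 lower genes and 1 higher gene, beside 10.3% of all genes tested in either direction. The remaining lower one was *St8sia6* (log2 fold change -0.42, edgeR adjusted p = 0.337). The extremes of the list were *St8sia1* at 0.67 (SE 0.381) and *St8sia3*, a transferase of neurons, at -0.72 (SE 0.421).

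Because *Siglec1* and *Cd274* are known to respond to interferons, a list of interferon-regulated genes was set beside them. It was chosen with earlier results of these data known, and the study had already reported *Usp18* and *Oas* family members as upregulated in the same mice. Its direction is therefore a description and no independent result. All 34 genes tested had log2 fold changes above 0, beside 44.8% of all genes, with a median of 0.96, and 3 were called higher, beside 0.388% of all genes, *Isg15*, *Ifit1* and *Zbp1*, at 1.85, 1.85 and 2.06. The highest value was 2.63 for *Ifi44* (edgeR, adjusted p = 0.0558), which was not called, and the lowest 0.24 for *Stat2*. The value of *Cd274*, 1.34, lay above the median of that list and that of *Siglec1*, 0.49, below it. Of blood cell lists, monocyte markers summed to between 42.8 and 58.5 CPM in controls and between 44.6 and 81.6 CPM in CSF1 OE mice, and *Plac8*, also found in activated cells, had 7.28 ± 3.58 and 23.7 ± 11.4 CPM (edgeR, adjusted p = 0.0948). *Ms4a4c*, also of the monocyte list, had 0.697 ± 0.278 and 1.79 ± 0.573 CPM (edgeR, adjusted p = 0.142). In these 2 genes the genotypes did not overlap, beside 6.84% of all genes tested with CSF1 OE higher. The other 6 of the 8 monocyte genes tested had log2 fold changes below 0. Among them, the defining monocyte gene *Ly6c2* was at 1.94 ± 0.433 and 1.09 ± 0.545 CPM. Neutrophil markers ranged from 52.1 to 116 CPM and from 19.0 to 241 CPM, T and NK cell markers from 1.14 to 1.51 CPM and from 1.47 to 2.39 CPM, and dendritic cell markers, which include the microglial *Siglech*, from 560 to 863 CPM and from 691 to 1088 CPM. *Klrb1c*, the only T and NK cell marker that was tested, had 0.430 ± 0.178 and 1.25 ± 0.535 CPM, without overlap (edgeR, adjusted p = 0.134). The part of blood cells in the values of *Cd52*, a gene of lymphocytes and monocytes, was not tested.

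**Figure D3:**
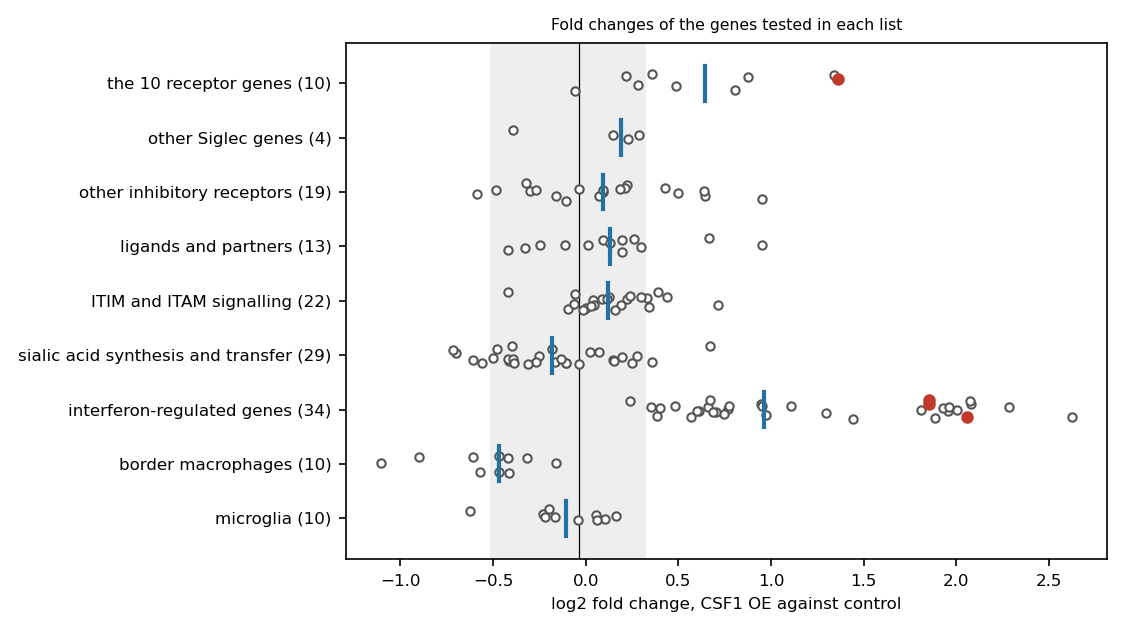
Log2 fold change (horizontal axis, CSF1 OE against control, edgeR) of each gene tested, in lists given with the number tested, with called genes filled red, the median of a list as a blue line and the 10th to 90th percentile of all genes tested as a grey band. The median is 0.65 for the 10 receptor genes, 0.96 for the interferon-regulated genes, -0.47 for the border macrophage genes, and between -0.18 and 0.19 for the 5 lists of related genes.

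Relative to the summed microglia markers, taken after the data had been seen, every CSF1 OE mouse was above every control mouse in 5 of the 10 genes, *Siglec1*, *Cd22*, *Cd72*, *Cd52* and *Havcr2*, beside 1.78% of all genes tested. *Havcr2* then had 37.2 ± 5.74 CPM in controls and 65.3 ± 8.87 CPM in CSF1 OE mice per 10000 CPM of markers, and *Siglec1* 11.7 ± 0.979 and 16.8 ± 2.41. *Cd274* overlapped, because control mouse 1934 reached 5.74 and CSF1 OE mouse 2019 had 3.82. With the libraries scaled in this way edgeR called 0 of the 10 genes and 0 of all genes, with adjusted p from 0.150 for *Cd52* to 0.732 for *Cd22* among the 5 that did not overlap, *Cd72* at 0.450 included. Their log2 fold changes moved little, with 1.35 for *Cd72*, 1.39 for *Cd52*, 0.81 for *Havcr2*, 0.89 for *Cd22* and 0.52 for *Siglec1*.

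The labels give no batch, but the animal numbers 1931 to 1936 hold 1 control and 3 CSF1 OE mice and the other numbers 3 and 1, so that they overlap with genotype. Within the first range and the others, *Cd72* had log2 differences in CPM of 1.18 and 1.38, *Cd52* of 1.68 and 1.63, *Cd274* of 1.09 and 0.86, *Cd22* of 1.02 and 1.03, *Havcr2* of 1.02 and 0.97, and *Siglec1* of 0.83 and 0.63. All 6 were above 0 in both, which follows from the lack of overlap in these genes and is no further check of direction. For *Sirpa* they were 0.42 and 0.0084 and for *Cd300lf* 0.46 and -0.23. A term for the range in edgeR called 6 of the 10 genes, the 6 without overlap, all higher, beside 9.5% of all genes tested, and DESeq2 called 5, the same without *Siglec1*, beside 3.16%. *Cd33* had an adjusted p of 0.0279 from edgeR with the term for the range, at a log2 fold change of 0.41 that is under the fold limit.

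**Figure D4:**
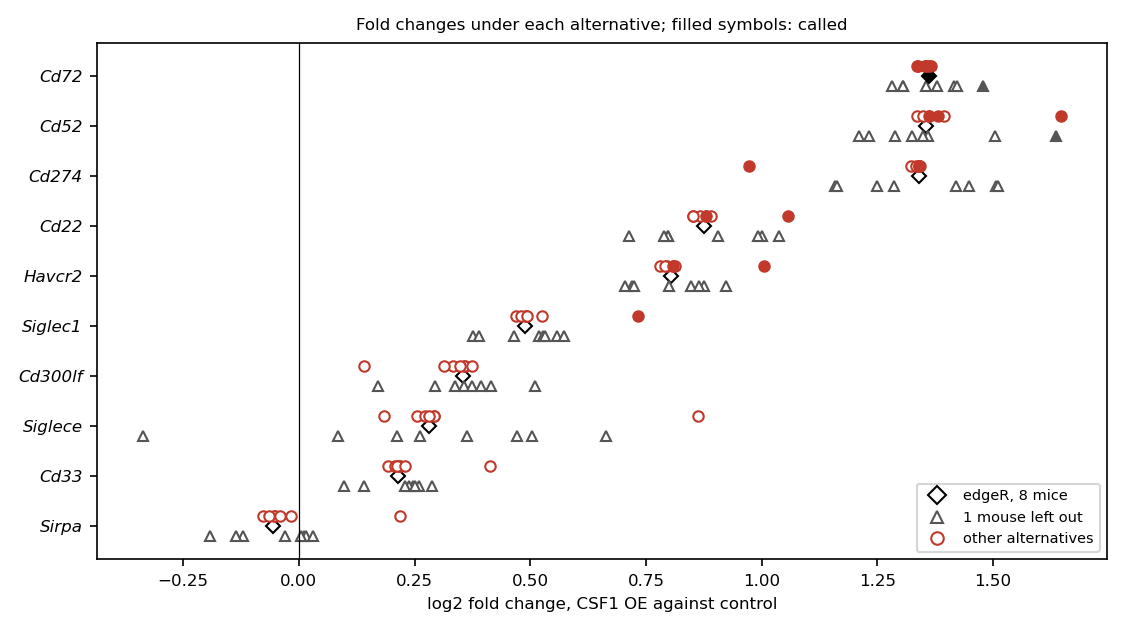
Log2 fold change (horizontal axis, CSF1 OE against control) of each gene with all 8 mice in edgeR (diamonds), with 1 mouse left out (triangles) and under the other alternatives (circles), filled where the gene was called. *Cd72*, *Cd52*, *Cd274*, *Cd22*, *Havcr2* and *Siglec1* stay above 0 throughout, from 0.38 to 1.65, while *Siglece* and *Sirpa* lie on both sides of 0.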

How the data were processed

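RNA-seq of CD11b+ cells was taken from 4 control and 4 CSF1 OE mice. The authors mapped paired reads with Bowtie 1.0.0 and deposited expected counts per gene symbol from RSEM 1.2.7, without normalization. In a second deposited table, a signal on the count scale, each library had been divided by its own size factor. The submitters' processing notes name mm10, and the annotation is not given in the sources used here. Groups came from the sample titles, and 0 columns were left unmapped. No library was a copy of another (lowest chi-square per gene 14.6 over 28 pairs).

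The expected counts, of which 20.8% to 26.5% per library were not whole, were rounded and analysed under R 4.3.3 after filterByExpr and TMM by glmQLFit and glmQLFTest of edgeR 4.0.16. The common biological coefficient of variation was 0.228. Except for the limit of 3 counts, which used total counts, CPM used TMM-normalized library sizes and log2 CPM a prior count of 2. Intervals and the limit of 3 counts follow the model and counting error only. EBSeq, the tool of the study, was not run. On simulated data with 13407 genes and 200 changed by a factor of 2, edgeR recovered 74.0% with 5.73% false calls and DESeq2 75.5% with 10.7%. The simulation gave every gene the same dispersion, so these shares need not hold for the real libraries. Positions and lengths came from GENCODE M21 (GRCm38), which gave a length for 99.6% of symbols.

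The 10 members and all lists were chosen with earlier results of these data known. Named are all members, the called genes and the largest rise and fall of each list described, and for each member the gene with the highest correlation. Other genes, such as partners of a member, further Siglecs and example markers, were named after values were seen. Alternatives were DESeq2 1.42.0, upper-quartile factors, no filter beyond 1 count, at least 10 counts in every library, limma 3.58.1 on the deposited normalized values (log2, pseudocount 1), the animal number range as a covariate, each mouse left out, no fold limit and, added after seeing the data, scaling to microglia markers.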

Additional observations from a re-analysis of the deposited data

How the results depend on the processing

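Over 150 pairs of a receptor gene and an alternative, 123 kept the direction and the call, 11 gained a call, 10 lost it (all *Cd72*) and 6 changed sign. With 1 mouse left out, log2 fold changes ran from -0.34 to 0.66 for *Siglece* and from -0.19 to 0.030 for *Sirpa*. The changes of sign were those of *Siglece* without CSF1 OE mouse 2019 (-0.34) and of *Sirpa* with the term for animal numbers (0.22) and without control mouse 1872 (0.012) or 1874 (0.016) or CSF1 OE mouse 1932 (0.030) or 1936 (0.0042). Against 59 genes, 1 receptor gene, 0 related genes and 3 interferon-regulated genes called with all 8 mice, DESeq2 called 430, 5, 3 and 25, the term for animal numbers 1274, 6, 11 and 20, upper-quartile factors gave 19, 0, 0 and 1, limma gave 105, 2, 0 and 12, and scaling to the microglia markers, added after the data had been seen, gave 0 of each. The cause was not tested. Without a filter beyond 1 count 0 receptor genes and 44 genes in all were called. Leaving out 1 mouse gave from 3 to 164 genes, from 0 to 2 receptor genes, from 0 to 1 related genes and from 0 to 13 interferon-regulated genes, with 164, 2 and 13 of them without control mouse 1827. *Lgals9* was the related gene called without control mouse 1827, and *Cmah*, lower, without CSF1 OE mouse 2019. Of the genes called, 52 of 59 were higher with all 8 mice, 272 of 430 with DESeq2 and 303 of 1274 with the term for animal numbers. No paired analysis was run, because no source used here gives litters or other pairs of mice across the genotypes. The lowest counts were those of *Cd72* and *Cd22*, with 17 to 59 and 46 to 126 per library.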

Other observations

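For each receptor gene, the gene with the most similar log2 CPM over the 8 libraries was sought among the other 13406 genes tested, as a description, since the closest of so many genes over 8 points is always similar. *Sirpa* was closest to *Ctc1* (Pearson's r 0.999), also in deviations from the genotype means (0.9995). *Cd33* followed *Lpxn*, which encodes the leukocyte adaptor leupaxin (0.992), *Cd52* followed *Camk1d* (0.994), and *Havcr2* followed *Fcf1* (0.993). *Cd72* was closest to *Npm1* (0.986), the gene of the nucleolar protein nucleophosmin, *Siglec1* to *Erap1* (0.985), an aminopeptidase that trims peptides for MHC class I, and *Cd274* to *Rfc5* (0.986), a subunit of the clamp loader of DNA replication. The closest genes of *Cd22*, *Siglece* and *Cd300lf* were *Mrps21* (0.987), *Grap* (0.980) and *Pgk1* (0.974). In deviations from the genotype means, which leave out the difference between control and CSF1 OE mice, every gene but *Sirpa* had another closest gene, such as *Nap1l4* for *Cd72* (0.977), *Slc36a4* for *Cd274* (0.991) and *Abcb4* for *Siglec1* (0.990).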
